A study of Mus musculus with 6 samples.

Results

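The genes described here are 5 connexins, Gja1, Gja4, Gja5, Gjc1 and Gjb2, and the pannexin Panx1. They were chosen by gene symbol, with earlier results of these data known. All 6 were found among the 24411 genes of the count table. They were measured by bulk RNA-seq in 2 mouse endothelial lines, UV2 and bEnd.3, with 3 libraries of each. UV2, also written UV♀2, has the strain (BALB/c x C57BL/6)F1. bEnd.3, of strain BALB/c, came from mouse brain endothelium and carries the middle T oncogene of polyomavirus, which immortalised it. Cells of both lines were grown to confluency on a 10-cm dish and then spent 3 days without serum. Both were studied as cultured lines only, and the labels do not say whether its libraries came from separate dishes. The p-values below therefore set the difference between lines against the spread between libraries, which may be technical.

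Connexins are membrane proteins that assemble as hexamers (connexons), and connexons of neighbouring cells dock to form gap junctions, through which ions and small molecules such as calcium and inositol trisphosphate pass from cell to cell. Arterial endothelium is known for Cx37 (Gja4) and Cx40 (Gja5), while Cx43 (Gja1) is the most widespread connexin of the body and Cx45 (Gjc1) is best known from smooth muscle and the developing heart and vessels. Cx26 (Gjb2) is a connexin of epithelia and the cochlea. Pannexins form channels in the membrane of a single cell and release ATP, and Panx1 is opened by caspase cleavage.

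Total expected counts were 21306441 to 26769149 in UV2 and 21944529 to 28748128 in bEnd.3. All 9 endothelial markers on the list (Pecam1, Cdh5, Kdr, Tek, Tie1, Emcn, Erg, Esam and Egfl7) exceeded 1 CPM in both lines, and their summed level was 11720 to 13334 CPM in UV2 libraries and 11890 to 12585 CPM in bEnd.3 libraries. CPM here means counts relative to the TMM-scaled size of each library. Summed levels of the 9 mural markers were 3.16 to 5.75 CPM in UV2 and 0.814 to 1.26 CPM in bEnd.3, with Cnn1 and Des at 0 counts in both lines. The UV2 sum came almost wholly from Pdgfrb, with a mean of 4.36 CPM in UV2 and 0.287 CPM in bEnd.3. Every other mural marker had a mean under 1 CPM in both lines, and Myh11, Abcc9, Notch3 and Cspg4 were lower in UV2. The 6 fibroblast markers summed to 7.90 to 16.4 CPM in UV2 and 1.57 to 2.85 CPM in bEnd.3. That sum came mostly from Pdgfra in every library. Each remaining fibroblast marker had a mean under 1 CPM in both lines, and the mean of Col1a1 was lower in UV2. The 7 epithelial and 4 glial markers stayed under 1 CPM in every gene of both lines, with Epcam and Aqp4 at 0. The 5 leukocyte markers summed to 608 to 630 CPM in UV2 and 90.5 to 160 CPM in bEnd.3, through Lyz2 and Cd68, while Ptprc had 0 counts in UV2 and Cd3e had 0 in both lines. What part any of these cell types had in the connexin levels was not tested, and in bulk RNA fewer cells of a type and less RNA per cell cannot be told apart.

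Promoter sequences are shown for the 3 alpha connexins: Gja5, which fell furthest, Gja1, the most abundant connexin of both lines, and Gja4, whose difference was positive but not called. Gjc1, which fell beyond 2-fold, had no matched window. Each runs 5′ to 3′ on the gene's strand from 250 bases before to 50 bases after the RefSeq start site in GRCm38.p6, at chr3:97032152-97032451 on the plus strand for Gja5, chr10:56377050-56377349 on the plus strand for Gja1 and chr4:127313990-127314289 on the minus strand for Gja4. Capitals mark matches on either strand to the 6 motifs searched.
Gja5: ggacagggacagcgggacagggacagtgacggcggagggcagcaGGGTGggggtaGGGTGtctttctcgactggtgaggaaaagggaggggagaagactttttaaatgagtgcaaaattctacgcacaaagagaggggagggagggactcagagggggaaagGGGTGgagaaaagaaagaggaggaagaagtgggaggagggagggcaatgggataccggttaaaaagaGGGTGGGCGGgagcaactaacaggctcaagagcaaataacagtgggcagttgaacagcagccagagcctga
Gja1: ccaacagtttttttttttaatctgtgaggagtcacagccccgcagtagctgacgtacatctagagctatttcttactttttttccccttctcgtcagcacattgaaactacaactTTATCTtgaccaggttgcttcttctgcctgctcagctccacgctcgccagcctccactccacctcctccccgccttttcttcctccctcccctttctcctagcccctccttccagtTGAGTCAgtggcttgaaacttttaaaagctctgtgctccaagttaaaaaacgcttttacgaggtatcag
Gja4: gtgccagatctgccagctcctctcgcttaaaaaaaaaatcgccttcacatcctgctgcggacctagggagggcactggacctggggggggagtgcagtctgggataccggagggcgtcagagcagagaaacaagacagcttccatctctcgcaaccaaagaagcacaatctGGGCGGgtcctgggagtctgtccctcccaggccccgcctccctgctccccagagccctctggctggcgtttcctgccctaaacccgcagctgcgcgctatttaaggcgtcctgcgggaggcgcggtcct

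The motifs were AP-1 (TGACTCA), the GC box (GGGCGG), the KLF core (CACCC), the ETS core (CCGGAA), the GATA core (AGATAA) and the TATA box (TATAAA), each with its reverse complement. Of 32851 RefSeq promoter windows of the same length, 5.20% held the AP-1 motif, 35.7% the GC box, 57.5% the KLF core, 14.9% the ETS core, 11.2% the GATA core and 13.6% the TATA box. The Gja5 window held 4 KLF cores, all read as GGGTG on the printed strand, and 1 GC box, which overlaps the KLF core nearest the start site. The Gja1 window held 1 AP-1 match at position -19 and 1 GATA core at position -135, counted from the start site as 1 with no 0. The Gja4 window held 1 GC box at position -79. G and C made up 55.7% of the Gja5 window, 47.7% of the Gja1 window and 62% of the Gja4 window, against a median of 52.7% over all windows. A RefSeq window was matched for 5 of the 6 genes. The other windows, of Gjb2 and Panx1, held 7 KLF cores with 2 GC boxes (Gjb2) and 4 ETS cores in 2 overlapping pairs (Panx1). A match describes these letters only.

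Of the 6 genes, 5 had enough counts to be tested, and 3 of these, Gja5, Gjc1 and Gja1, fell in UV2 relative to bEnd.3. None of the 5 rose by the same test, and Gjb2 was not tested. Among all 12720 tested genes 33.3% were lower and 33.9% higher in UV2 (67.1% in either direction), so calls in either direction, 3 of 5, were about as frequent as in the whole table. By more than 2-fold, tested with edgeR's glmTreat, 2 of the 5 were lower, Gja5 and Gjc1, where 8.81% of all tested genes were. The median log2 fold change of the 5 was -0.66, against -0.01 over all tested genes. The genes were chosen with earlier results of these data known, and Gja5 passed the filter on low counts only through bEnd.3. These shares and medians therefore describe the 5 genes and do not test them as a set. All fold changes are UV2 minus bEnd.3 on the log2 scale, with standard errors (SE) and Benjamini-Hochberg adjusted p-values from edgeR's quasi-likelihood test.

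Cx40 transcripts were close to absent from UV2. Gja5 (GRCm38 chromosome 3, 97032402 to 97053634, plus strand, 2 exons with the whole coding sequence in 1 of them) had 0, 1 and 3 counts in UV2 replicates 1, 2 and 3, against 208, 943 and 539 counts in bEnd.3 replicates 1, 2 and 3. On the CPM scale these were 0, 0.0485 and 0.116 in UV2, against 9.33, 38.4 and 18.3 in bEnd.3. The lines did not overlap, as was the case for 73.2% of all tested genes, and within bEnd.3 replicate 2 was high and replicate 1 low. Gja5 passed the filter on low counts through bEnd.3 alone, so a bEnd.3 level above that filter was fixed in advance. The fitted difference was -8.47 on the log2 scale, with an SE of 0.87 and an adjusted p of 8.74e-05. From the 4 counts in UV2 and 1690 in bEnd.3, the bEnd.3 to UV2 ratio was 389 with an exact 95% counting interval of 152 to 1429, which covers counting error only. Leaving out UV2 replicate 3 gave a log2 fold change of -9.63, and leaving out bEnd.3 replicate 2 gave -7.80. A Rik clone, 4930573H18Rik, is annotated on the opposite strand within the Gja5 span, and whether the counting used strand is not known here.

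Cx45 transcripts were also lower in UV2. Gjc1 (chromosome 11, 102799477 to 102819686, minus strand, 3 exons, coding sequence in 1 exon) had 2.15, 2.18 and 1.27 CPM in UV2 replicates 1, 2 and 3, against 8.70, 13.2 and 11.6 CPM in bEnd.3 replicates 1, 2 and 3. Every UV2 library lay below every bEnd.3 library, and 73.2% of all tested genes likewise did not overlap. The fall was 6.03-fold (log2 fold change -2.59, SE 0.25, adjusted p = 6.08e-05) and held beyond 2-fold (adjusted p = 0.000494). It stayed called under all 15 alternatives, with log2 fold changes of -2.74 to -2.36.

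Cx43 was the main connexin of both lines, and its fall in UV2 was small. Gja1 (chromosome 10, 56377300 to 56390419, plus strand, 2 exons, coding sequence in 1 exon) had 54.0, 57.7 and 42.7 CPM in UV2 replicates 1, 2 and 3, against 105, 81.5 and 56.7 CPM in bEnd.3 replicates 1, 2 and 3. The lines overlapped, since UV2 replicate 2 stood just above bEnd.3 replicate 3. Within each number the UV2 library was the lower one, at 0.514, 0.708 and 0.753 of the bEnd.3 level for numbers 1, 2 and 3. The labels do not say that equal numbers mark pairs. The fall was 1.57-fold (log2 fold change -0.66, SE 0.22, adjusted p = 0.0270), and a change beyond 2-fold was not called (adjusted p = 1). The call was lost on leaving out any of 4 libraries, with a log2 fold change of -0.68 (adjusted p = 0.0633) without UV2 replicate 1, -0.53 (adjusted p = 0.0788) without UV2 replicate 3, -0.43 (adjusted p = 0.0647) without bEnd.3 replicate 1 and -0.65 (adjusted p = 0.0680) without bEnd.3 replicate 2.

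Cx37 went the other way in its mean but varied widely between libraries. Gja4 (chromosome 4, 127311420 to 127314039, minus strand, 2 exons, coding sequence in 1 exon) had 3.04, 13.1 and 8.41 CPM in UV2 replicates 1, 2 and 3, against 2.29, 4.80 and 3.12 CPM in bEnd.3 replicates 1, 2 and 3. UV2 replicate 1 lay within the bEnd.3 range and the other UV2 libraries lay above it. The log2 fold change of 1.25 (SE 0.50) missed the threshold (adjusted p = 0.0541). Deviations of same-numbered libraries were weakly correlated over all tested genes (r = 0.116, 0.210 and 0.257 for numbers 1, 2 and 3). The labels do not state such a pairing. For these numbers the Gja4 level in UV2 was 1.33, 2.72 and 2.69 times that in bEnd.3. With the replicate number as a block, a choice drawn from these same data, Gja4 was called higher in UV2, at 1.16 on the log2 scale (SE 0.23, adjusted p = 0.00600). It was also called in DESeq2 (adjusted p = 0.0111), with no filter (adjusted p = 0.0375), without UV2 replicate 1 (log2 fold change 1.66, adjusted p = 0.00474) and without bEnd.3 replicate 2 (log2 fold change 1.59, adjusted p = 0.0490), while leaving out UV2 replicate 2 gave 0.76 on the log2 scale. The limma-voom 95% interval of its log2 fold change ran from -0.25 to 2.36.

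**Figure D1:**
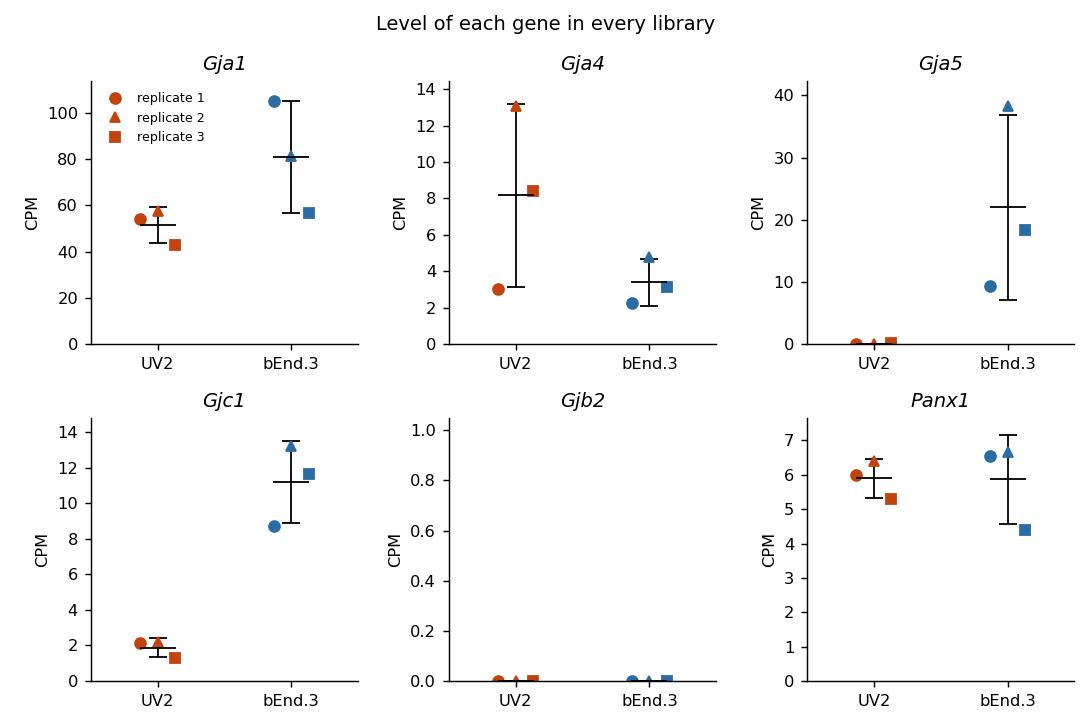
Level of each gene in CPM (y axes from 0, scaled separately) in the 3 UV2 libraries (orange, left) and the 3 bEnd.3 libraries (blue, right), with symbols for the replicate number and bars for mean ± SD. Gja5 and Gjc1 do not overlap between the lines, as is the case for 73.2% of all tested genes. Gja1, Gja4 and Panx1 overlap, and Gjb2 is at 0 in all 6 libraries.

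No transcript of Cx26 was found in either line. Gjb2 (chromosome 14, 57098602 to 57104702, minus strand) had 0 counts in all 6 libraries and was not tested. A count of 0 over the 3 libraries of a line allows up to 3 counts, or 0.0427 CPM in UV2 and 0.0393 CPM in bEnd.3. Its neighbours on chromosome 14, Gjb6 (Cx30), 18.6 kb away, and Gja3 (Cx46, a lens connexin), 40.6 kb away, also had 0 counts in every library.

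The pannexin channel gene showed no difference that the test could detect. Panx1 (chromosome 9, 15005785 to 15045478, minus strand, 5 exons, all coding) had 6.00, 6.40 and 5.28 CPM in UV2 replicates 1, 2 and 3, against 6.55, 6.68 and 4.38 CPM in bEnd.3 replicates 1, 2 and 3. In both lines replicate 3 was the lowest library, and the ranges of the lines overlapped. The fitted difference was 0.01 on the log2 scale (SE 0.19, adjusted p = 0.969), and its sign turned with total counts as the scaling. The limma-voom 95% interval, -0.41 to 0.50, leaves room for a level in UV2 between 0.750 and 1.42 times that in bEnd.3.

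Levels of different genes were compared per kilobase of the longest GENCODE M21 transcript linked to RefSeq, from 1685 bases for Gja4 to 5732 bases for Panx1. In UV2, Gja1 led with 16.8 ± 2.54 CPM per kb (SD, n = 3), followed by Gja4 with 4.85 ± 2.98, Panx1 with 1.03 ± 0.0987, Gjc1 with 0.808 ± 0.224 and Gja5 with 0.0176 ± 0.0187 CPM per kb. The UV2 libraries separated Gja1 from Gja4 and Gja4 from Panx1, but Panx1 and Gjc1 overlapped. In bEnd.3, Gja1 led with 26.4 ± 7.87 CPM per kb, followed by Gja5 with 7.08 ± 4.79, Gjc1 with 4.84 ± 0.993, Gja4 with 2.02 ± 0.761 and Panx1 with 1.02 ± 0.225 CPM per kb. There the ranges of Gja5 and Gjc1 overlapped, and each other neighbour in this order was separate. The transcript used for each count is not known, so these levels per length carry that uncertainty.

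Summed over the connexins, transcript per length was 21.2, 29.03 and 20.1 CPM per kb in UV2 replicates 1, 2 and 3, against 42.5, 47.9 and 31.6 CPM per kb in bEnd.3 replicates 1, 2 and 3. Every UV2 sum lay below every bEnd.3 sum. Of that sum, Gja1 made up 64.8% to 82.7% in UV2 libraries and 55.4% to 80.4% in bEnd.3 libraries, overlapping ranges. Gja4 held 8.50%, 26.8% and 24.8% in UV2 replicates 1, 2 and 3, against 3.19%, 5.95% and 5.86% in bEnd.3 replicates 1, 2 and 3. Gja5 held at most 0.185% of the sum in a UV2 library, against 7.05%, 25.8% and 18.6% in bEnd.3 replicates 1, 2 and 3. Gjc1 held 2.74% to 4.38% in UV2 and 8.84% to 15.9% in bEnd.3. After Gja1, the second connexin was thus Gja4 in each UV2 library, and it was Gja5 in bEnd.3 replicates 2 and 3 but Gjc1 in bEnd.3 replicate 1.

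**Figure D2:**
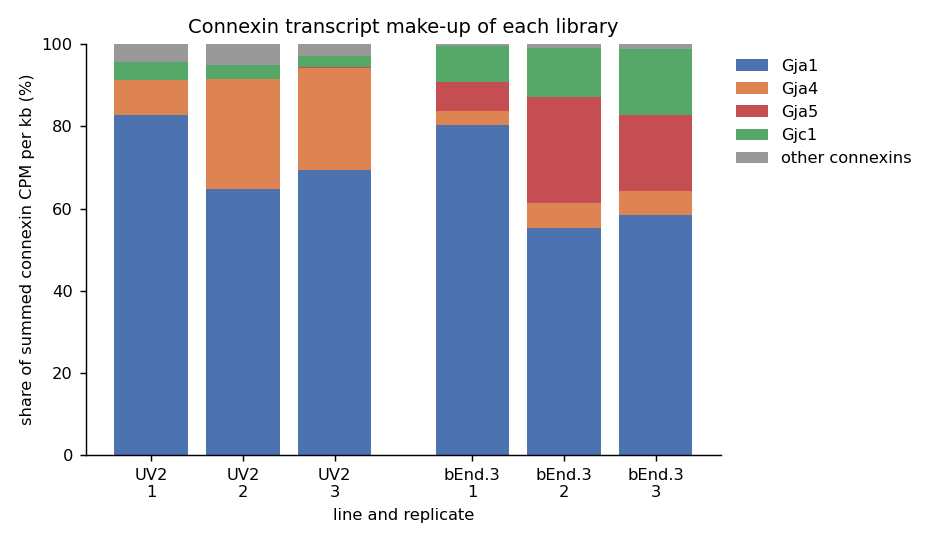
Stacked bars give the share (%) of each connexin in the summed connexin CPM per kb of a library, with UV2 replicates at left and bEnd.3 replicates at right. Gja1 is the tallest block in all 6 libraries, Gja4 is at most 26.8% in UV2, and Gja5 reaches 25.8% in bEnd.3 and is nearly missing from UV2.

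The spread between libraries of a line was wide for several of these genes. The coefficient of variation (SD over mean CPM) of Gja4 was 61.5% in UV2 and 37.6% in bEnd.3, above that of 97.9% and 92.7% of tested genes. Gja5 had 67.6% in bEnd.3, above 97.5% of tested genes. Gja1 had 15.2% in UV2 and 29.8% in bEnd.3, Gjc1 had 27.7% in UV2 and 20.5% in bEnd.3, and Panx1 had 9.60% in UV2 and 22.0% in bEnd.3. The median gene had 7.67% in UV2 and 9.62% in bEnd.3. In bEnd.3, replicate 1 was the highest library for Gja1 and the lowest for Gja4, Gja5 and Gjc1.

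Elsewhere in the family, Panx2 was higher in UV2 and had few or no counts in bEnd.3. Panx2, a pannexin best known from brain, had 2.20, 2.42 and 2.20 CPM in UV2 replicates 1, 2 and 3, against 0, 0.122 and 0.102 CPM in bEnd.3 replicates 1, 2 and 3. Every UV2 library lay above every bEnd.3 library, and 73.2% of all tested genes likewise did not overlap. The log2 fold change was 4.77, with an SE of 0.45 and an adjusted p of 5.70e-05. From 159 counts in UV2 and 6 in bEnd.3 the ratio was 28.8, with a 95% counting interval of 12.9 to 79.6. A gene passes the filter on low counts through its higher line, so Panx2 had to reach that level in one line. Gja6, Gjc3, Gjd3, Gjd4 and Gje1 had 3 or fewer counts over the 6 libraries and were not tested. Gja3, Gja10, Gjb1, Gjb5, Gjb6, Gjd2 and Panx3 had 0 counts in every library.

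Differences of neighbouring genes were set beside those of the connexins and Panx1. Among 77 genes within 5 Mb of Gja4 with an average log2 CPM above 3, the median log2 fold change was 0.38, and 43 were called higher and 15 lower in UV2. With that median removed, the log2 fold change of Gja4 was 0.88 (SE 0.50, adjusted p = 0.157). The same median was 0.09 around Gja1, 0.34 around Gja5, -0.14 around Gjc1 and -0.43 around Panx1, where 14 of 20 genes were called lower. With it removed, the log2 fold change of Panx1 was 0.44 (SE 0.19, adjusted p = 0.0778).

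**Figure D3:**
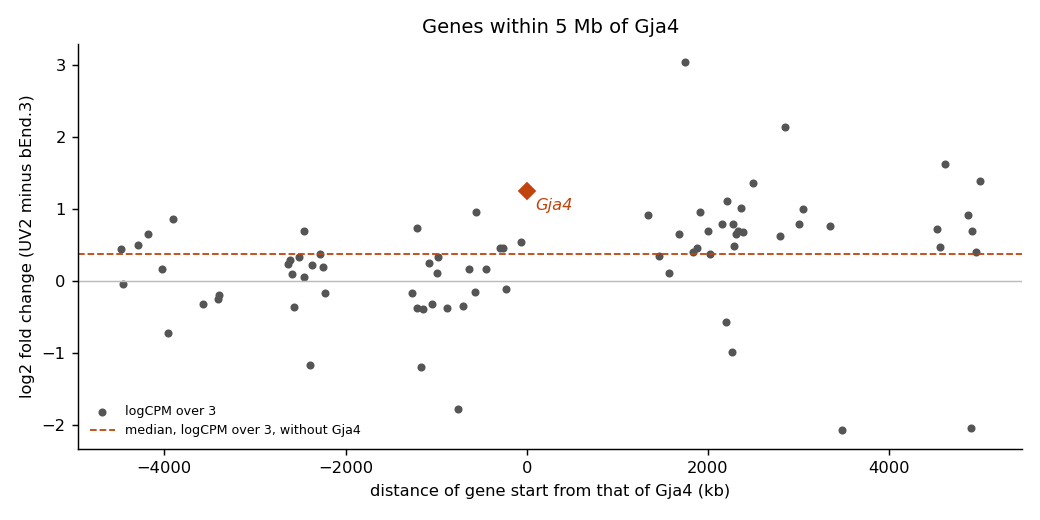
The log2 fold change (UV2 minus bEnd.3, y axis) of tested genes with an average log2 CPM above 3 (grey) against the distance of their start from that of Gja4 (kb, x axis), with Gja4 as a diamond. The dashed line is the median of the grey points, 0.38, and Gja4 lies above it at 1.25.

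Genes that traffic, anchor and turn over connexins were called about as often as all tested genes. Of 23 on the list, all tested, 8 rose in UV2, 8 fell and 7 missed the threshold, with a median log2 fold change of 0.02. That is 69.6% called, against 67.1% of all tested genes. Tjp1, the scaffold ZO-1 that binds the tail of Cx43, had 891 ± 81.9 CPM in UV2 and 717 ± 15.2 CPM in bEnd.3 (SD, n = 3 each; log2 fold change 0.31, SE 0.08, adjusted p = 0.0102). Cav1, the caveolar coat protein, had 876 ± 101 CPM in UV2 and 1515 ± 50.4 CPM in bEnd.3 (log2 fold change -0.79, SE 0.10). The highest and lowest of the list were Tmem65, a membrane protein of cardiac intercalated discs, at 74.4 ± 2.41 CPM in UV2 and 32.6 ± 2.94 CPM in bEnd.3 (log2 fold change 1.19, SE 0.08), and the ubiquitin ligase Trim21 at 21.4 ± 2.34 CPM in UV2 and 41.1 ± 3.98 CPM in bEnd.3 (log2 fold change -0.94, SE 0.11).

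Of 16 kinases and phosphatases that act on connexins, all tested, 6 were higher in UV2, 5 lower and 5 did not pass, with a median log2 fold change of 0.03. The share called, 68.8%, was close to the 67.1% of all tested genes. Prkcd, a protein kinase C, had 57.9 ± 5.47 CPM in UV2 and 18.3 ± 1.79 CPM in bEnd.3 (log2 fold change 1.66, SE 0.11), and Mapk3, the kinase ERK1, had 343 ± 11.5 CPM in UV2 and 209 ± 11.2 CPM in bEnd.3 (log2 fold change 0.72, SE 0.07). The mitotic kinase Cdk1 had 36.9 ± 15.1 CPM in UV2 and 93.3 ± 11.8 CPM in bEnd.3 (log2 fold change -1.34, SE 0.29, adjusted p = 0.00429). Yes1, a Src family kinase, had 99.0 ± 8.79 CPM in UV2 and 194 ± 11.3 CPM in bEnd.3 (log2 fold change -0.97, SE 0.09). The lower count was 3 without UV2 replicate 1 and 3 without UV2 replicate 3.

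Regulators of vascular connexins included genes that were nearly absent from one line. Of 24 genes, all tested, 10 were higher in UV2, 5 lower and 9 did not pass, with a median log2 fold change of 0.31. The share called was 62.5%, against 67.1% of all tested genes. With the replicate number as a block 9 were lower, and 8 were lower without UV2 replicate 3. Sox17, a transcription factor of arterial endothelium, had 0.423, 0.242 and 0.308 CPM in UV2 replicates 1, 2 and 3, against 61.8, 65.3 and 52.7 CPM in bEnd.3 replicates 1, 2 and 3 (log2 fold change -7.49, SE 0.18, adjusted p = 8.90e-08). Every UV2 library lay below every bEnd.3 library, and 73.2% of all tested genes likewise did not overlap. Sox17, and Hey2 below, passed the filter on low counts only through bEnd.3, so a bEnd.3 level above that filter was fixed in advance. Sox7, Sox18 and Hey2 were added after their values were seen, so their p-values are descriptive. Relatives of Sox17 in the same family differed in both directions. Sox7 had 344 ± 29.5 CPM in UV2 and 50.9 ± 3.38 CPM in bEnd.3 (log2 fold change 2.76, SE 0.09, adjusted p = 3.21e-07). Sox18 had 260 ± 16.5 CPM in UV2 and 364 ± 42.0 CPM in bEnd.3 (log2 fold change -0.49, SE 0.10, adjusted p = 0.00277). The Sox18 call was lost with the chromosome median removed (-0.21, adjusted p = 0.0880) or the median within 5 Mb removed (-0.08, adjusted p = 0.483). The Notch target Hey1 had 41.3 ± 16.03 CPM in UV2 and 0.752 ± 0.331 CPM in bEnd.3, and its relative Hey2 had 0.102 ± 0.0375 CPM in UV2 and 1.63 ± 0.740 CPM in bEnd.3 (log2 fold change -3.98, SE 0.53).

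The T-box factors Tbx2 and Tbx3, which are known to repress Gja5 and Gja1 in the heart, differed in opposite directions. Tbx3 had 30.7 ± 3.65 CPM in UV2 and 1.25 ± 0.629 CPM in bEnd.3 (log2 fold change 4.65, SE 0.28, adjusted p = 4.97e-06). Tbx2 had 0.185 ± 0.124 CPM in UV2 and 14.1 ± 2.46 CPM in bEnd.3 (log2 fold change -6.21, SE 0.35, adjusted p = 3.88e-06). Tbx2 passed the filter on low counts only through bEnd.3, so a bEnd.3 level above that filter was fixed in advance. Tbx2 and Tbx3 were added after their values were seen, so their p-values are descriptive. Notch1, the receptor, had 515 ± 49.03 CPM in UV2 and 408 ± 19.3 CPM in bEnd.3 (log2 fold change 0.33, SE 0.09, adjusted p = 0.00953). Its ligand Dll4 missed the threshold, at 219 ± 55.8 CPM in UV2 and 159 ± 44.9 CPM in bEnd.3 (log2 fold change 0.46, SE 0.23, adjusted p = 0.115). It was called higher under 4 of the 15 alternatives: with the chromosome median removed (adjusted p = 0.0270), with the median within 5 Mb removed (adjusted p = 0.0245), without UV2 replicate 1 (adjusted p = 0.0382) and without bEnd.3 replicate 1 (adjusted p = 0.0149). The flow-responsive factors Klf2 and Klf4 did not pass either, with log2 fold changes of -0.30 (adjusted p = 0.132) and -0.23 (adjusted p = 0.295), but both were called lower with the replicate block (adjusted p = 0.00566 for Klf2 and 0.0437 for Klf4) and without UV2 replicate 3 (adjusted p = 0.0365 for Klf2 and 0.00955 for Klf4). Klf2 was also called lower with the chromosome median removed (adjusted p = 0.0452). The venous factor Nr2f2 had 132 ± 6.02 CPM in UV2 and 162 ± 29.2 CPM in bEnd.3 (log2 fold change -0.29, SE 0.13, adjusted p = 0.0758). It was called lower with total counts (adjusted p = 0.0397) and without bEnd.3 replicate 1 (adjusted p = 0.00158), and its sign turned with the median within 5 Mb removed.

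Purine signalling partners of pannexin channels and other large-pore channel genes included calls in both directions. Of 20 genes, 19 were in the table and 15 were tested, of which 9 were higher in UV2, 3 lower and 3 did not pass, with a median log2 fold change of 0.50. The share called was 80% here and 67.1% over all tested genes, of which 33.9% were higher and 33.3% lower. Nt5e, the ectonucleotidase that makes adenosine, had 33.6, 61.1 and 86.8 CPM in UV2 replicates 1, 2 and 3, against 1.97, 0.611 and 0.611 CPM in bEnd.3 replicates 1, 2 and 3 (log2 fold change 5.88, SE 0.52, adjusted p = 3.79e-05). Entpd1, which degrades ATP and ADP, had 386 ± 49.3 CPM in UV2 and 163 ± 24.1 CPM in bEnd.3 (log2 fold change 1.24, SE 0.14). The ATP-gated channels P2rx7 and P2rx4 had log2 fold changes of 1.41 (SE 0.15) and 0.48 (SE 0.15, adjusted p = 0.0193), the call for P2rx4 being lost without UV2 replicate 3 (adjusted p = 0.0518) or without bEnd.3 replicate 2 (adjusted p = 0.0564). Among volume-regulated anion channel subunits, Lrrc8d and Lrrc8b were higher (log2 fold changes 1.92, SE 0.13, and 1.71, SE 0.11), while the obligatory subunit Lrrc8a missed the threshold at -0.30 (SE 0.13, adjusted p = 0.0812), but was called lower with the replicate block (adjusted p = 0.0247), with total counts (adjusted p = 0.0427) and without bEnd.3 replicate 1 (adjusted p = 0.0152). The lowest called was Fam26e, now named Calhm5, at 0.743 ± 0.216 CPM in UV2 and 2.15 ± 0.272 CPM in bEnd.3 (log2 fold change -1.54, SE 0.27).

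**Figure D4:**
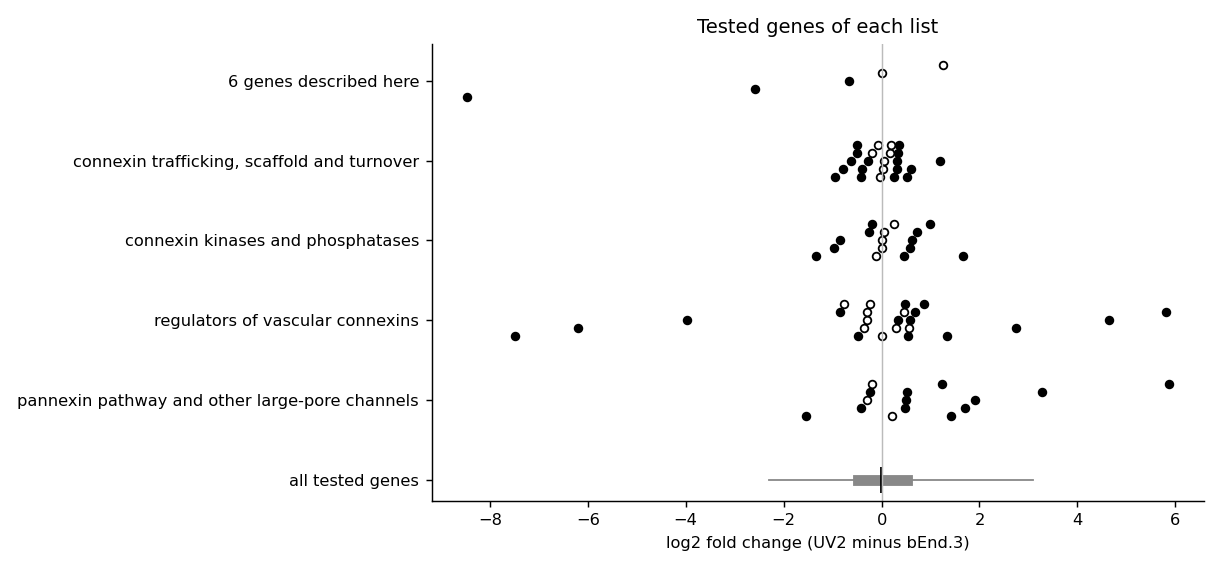
The log2 fold change (UV2 minus bEnd.3, x axis) of the tested genes of 5 lists, filled where the adjusted p is under 0.05 and open where it is not. The bottom row gives the median, the middle 50% (thick) and the middle 90% (thin) of all 12720 tested genes, and Gja5 lies far outside it to the left.

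The genes whose pattern over the 6 libraries was most like each connexin were found by the Euclidean distance of centred log2(CPM + 0.5) among 11526 genes. They were Stox2 (distance 0.657) and Ehd3 (0.801) for Gja5, Fam107b (0.310) and Fam122b (0.414) for Gjc1, and Phldb1 (0.165) and Phgdh (0.252) for Gja1. For Gja4 they were Mgll (0.775) and Nxpe4 (0.861), and for Panx1 Tnfaip8 (0.126) and Cacnb3 (0.163). With 6 libraries in 2 lines the distance mixes the difference between lines with the spread within them. Panx1 differed by 0.01 between lines, so its match rests on the spread within lines. A near pattern need not mean a like fold change, since that of Gja5 was -8.47, against -12.0 for Stox2 and -5.13 for Ehd3. The 0.5 added to CPM narrows such gaps for genes near 0 CPM.

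**Figure D5:**
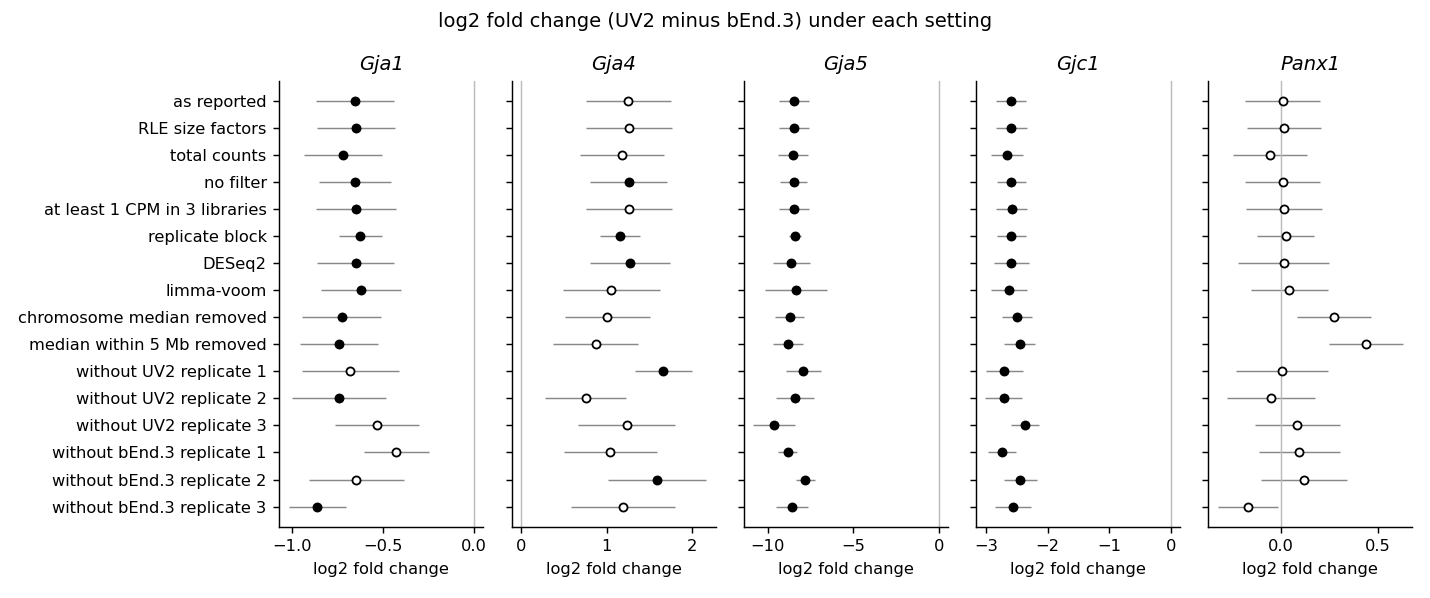
The log2 fold change (UV2 minus bEnd.3, x axes) of the 5 tested genes as reported and under 15 alternatives (rows), with SE bars, filled where the adjusted p is under 0.05. Gja5 and Gjc1 stay left of 0 and filled throughout, Gja1 stays left of 0 but is open in 4 rows, Gja4 stays right of 0 and is filled in 5 rows, and Panx1 lies around 0.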

How the data were processed

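The data were 6 bulk RNA-seq libraries, grouped by title. Per the labels' protocols, RNA was isolated with an RNeasy Micro Kit and libraries were made with a TruSeq Stranded mRNA kit. Trim Galore, STAR and RSEM, with the build mm10, appear in the submitters' processing notes. Versions, annotation and strand setting were not stated there or in the labels. The authors deposited unnormalized expected counts per gene symbol, which were rounded here. Expected counts divide reads among similar genes, and BALB/c reads may map less well to a C57BL/6 reference.

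Genes passing filterByExpr (12720 of 24411) were scaled by TMM and tested with edgeR's quasi-likelihood test on line alone, with Benjamini-Hochberg adjustment across the tested genes and calls under 0.05. Gja5, Sox17, Tbx2 and Hey2 passed that filter only through bEnd.3, the line where they were higher. SE is the absolute log2 fold change over the square root of F. The 15 alternatives were RLE size factors, total counts, no filter, a minimum of 1 CPM in 3 libraries, a replicate block, DESeq2, limma-voom, removal of the chromosome's or the surrounding 5 Mb's median, and each library left out. Same-numbered libraries had correlated deviations from their line means (r = 0.116, 0.210 and 0.257), a pairing read from the data and not from the labels. No library was a copy of another of the same line (chi-square per degree of freedom 11.3 to 38.4).

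The members and lists were chosen with earlier results of these data known. The rule named the 6 genes, other family genes with counts (some are not reported here), the highest and lowest called gene of each list, a set of regulators and partners, and the nearest patterns. Tbx2, Tbx3, Hey2, Sox7, Sox18, Mapk3, Yes1, P2rx7, Lrrc8b and Lrrc8d were added after their values were seen. Promoters came from RefSeq (GRCm38.p6) and transcripts from GENCODE M21, both of the mm10 assembly, with 99.7% of tested genes placed. Tools were edgeR 4.0.16, limma 3.58.1 and DESeq2 1.42.0 in R 4.3.3, with figures from matplotlib 3.10.9 in Python 3.11.15.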

Additional observations from a re-analysis of the deposited data

How the results depend on the processing

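Gja5 and Gjc1 stayed lower and called under all 15 alternatives. Leaving out each library in turn gave log2 fold changes of -0.86 to -0.43 for Gja1, 0.76 to 1.66 for Gja4 and -0.17 to 0.12 for Panx1. For Gja4 the log2 fold change was 1.26 with no filter, 1.16 with the replicate block and 1.27 in DESeq2, each now past the threshold, so that 1 of the 6 genes was called higher there against 0 otherwise; leaving out a library gave 0 to 1. The sign of Panx1 turned with total counts (log2 fold change -0.0555), without UV2 replicate 2 (-0.05) and without bEnd.3 replicate 3 (-0.17). The sign of Nr2f2 turned with the median within 5 Mb removed (0.0503). Where at least 1 CPM in 3 libraries was required, 1 other family gene was called higher in place of 2. Regulators called lower were 9 with the replicate block in place of 5. Leaving out a library gave 5 to 8 of these, 3 to 5 kinases and phosphatases called lower and 0 to 1 other family genes called lower. Of 210 counts under alternatives, 199 stayed within 1.5 times; of 448 values of 30 other named genes, 429 kept their direction and side of the threshold. The replicate block changed the call of no other of the 6 genes. The cause of these shifts was not tested. Genes with few counts, such as Gja5 in UV2, are limited by depth.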
